A study of Mus musculus with 6 samples.

Results

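The genes described here encode the PI3K, Akt, TSC and mTOR signaling cascade. They are 39 genes, chosen by symbol, of 45291 gene symbols in the deposited table, and where a symbol had several loci the locus with the highest mean FPKM was taken. All 39 symbols were found. FPKM is a fragment level scaled to the length of the transcript and to the size of the library, so that levels can be set side by side between genes. The libraries came from primary hippocampal cultures of C57BL/6 mice, grown for 14 days in vitro without drug treatment, 3 from wild type (WT) and 3 from *Fmr1* knockout (KO) mice. *Fmr1* is X-linked and encodes FMRP, an RNA-binding protein that represses translation and is lost in fragile X syndrome. According to the study's methods, neurons were taken from newborn WT and *Fmr1* KO pups. The animals of the study were males, *Fmr1* KO and their WT littermates, according to its methods, and for biochemical work on primary neurons litters were combined. The sex of the pups and the litter behind each library are not named for RNA-seq, so the p-values measure the spread between these libraries.

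PI3K at the membrane converts a phosphoinositide lipid into a docking site for the kinases PDK1 and Akt. Akt inhibits the TSC complex, which otherwise keeps the small GTPase Rheb inactive, and active Rheb switches on mTOR complex 1 (mTORC1). mTORC1 phosphorylates the S6 kinases and the 4E-BP repressors and thereby raises cap-dependent translation, which in neurons is known for its part in synaptic plasticity. Signaling in this cascade is carried by phosphorylation and by lipids, and transcript levels do not measure it. The study asked whether the cascade is altered in *Fmr1* KO. For this it compared the levels of Akt and S6K1, as total and phosphorylated proteins, in hippocampus taken from mice, not in cultured neurons. PI3K activity was assayed in cultured WT neurons. The question that the RNA values address is whether the transcripts of the components of the cascade differ between the genotypes.

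FPKM does not give the number of reads, so the absolute depth of the libraries is unknown. The non-coding RNA Bc1 took 73.7 to 80.6% of the summed FPKM of a library. *Fmr1* itself had an FPKM of 19.0, 19.5 and 19.7 in WT against 23.1, 21.8 and 18.5 in *Fmr1* KO, so its level does not set the labelled genotypes apart and checks none of the labels. The libraries are labelled as hippocampal neuron. Markers of inhibitory neurons (5 genes) summed to 157 to 161 FPKM in WT against 153 to 163 in *Fmr1* KO. Those of astrocytes (6 genes) summed to 1355 to 1619 against 1431 to 1589. Dlx1 and Dlx2 of the inhibitory list were higher in all *Fmr1* KO libraries, while Gad1, Gad2, Slc32a1 and every astrocyte gene overlapped between the genotypes. Markers of excitatory neurons (5 genes) summed to 821 to 856 FPKM in WT against 855 to 925 in *Fmr1* KO, and those of the oligodendrocyte lineage (7 genes) to 317 to 370 against 366 to 406. The cultures were thus not neurons alone, and fewer cells of a type and less RNA per cell cannot be told apart in such bulk samples. The 5 markers of proliferation summed to 29.5 to 34.8 FPKM in WT against 34.9 to 40.5 in *Fmr1* KO. The Y-linked transcript Eif2s3y was higher in all *Fmr1* KO libraries (19.6 to 22.4 FPKM) than in WT (9.26 to 9.68). Ddx3y, Kdm5d and Uty, also Y-linked, were separated in the same direction. The X-linked transcript Xist had 59.9 to 77.9 FPKM in WT against 53.0 to 61.3 in *Fmr1* KO, with overlap. Xist and Y-linked transcripts were thus present in every library, so the libraries were not read as from males alone. The part of cell composition, proliferating cells and pup sex in the results that follow was not tested.

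No gene of the cascade differed between the genotypes at a Benjamini-Hochberg adjusted p below 0.05. Of the 39 genes, 35 reached a mean of 1 FPKM in WT, in *Fmr1* KO or in both, and were tested with limma on log2(FPKM + 0.1) together with all other loci above that minimum, 13195 in all. Of these, 0.265% passed an adjusted p of 0.05. The lowest adjusted p in the cascade was 0.208, for Rps6kb1. An unadjusted p below 0.05 was reached by 3 of the 35 genes (8.57%), Rps6kb1 and Rptor with higher and Foxo1 with lower levels in *Fmr1* KO. The share over all tested loci was 14.8% (6.99% higher and 7.77% lower), so the share in the cascade was no larger. The 3 libraries of each genotype did not overlap for 8 of the 35 genes, or 22.9%, against 21.1% of all tested loci. *Fmr1* KO was on the higher side for 6 of the 35 genes, against 10.8% of all tested loci, and on the lower side for 2, against 10.3%.

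The changes were small. The log2 change, *Fmr1* KO minus WT, ran from -0.23 for Inpp4b to 0.27 for Deptor, the tested genes with the lowest levels in the cascade. Its median over the 35 genes was 0.04, with 22 genes above 0 and 13 below, and the median over all tested loci was 0.005. Without WT replicate 2 the median of the 35 was 0.0098. For 23 of the 35 genes (65.7%), the 95% interval of the change lay within 1.2-fold in either direction, against 45.7% of all tested loci. For 33 it lay within 1.5-fold, against 89.4% of all tested loci, the exceptions being Deptor and Inpp4b. For such weakly expressed genes the added 0.1 makes the log2 change an understatement.

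**Figure D1:**
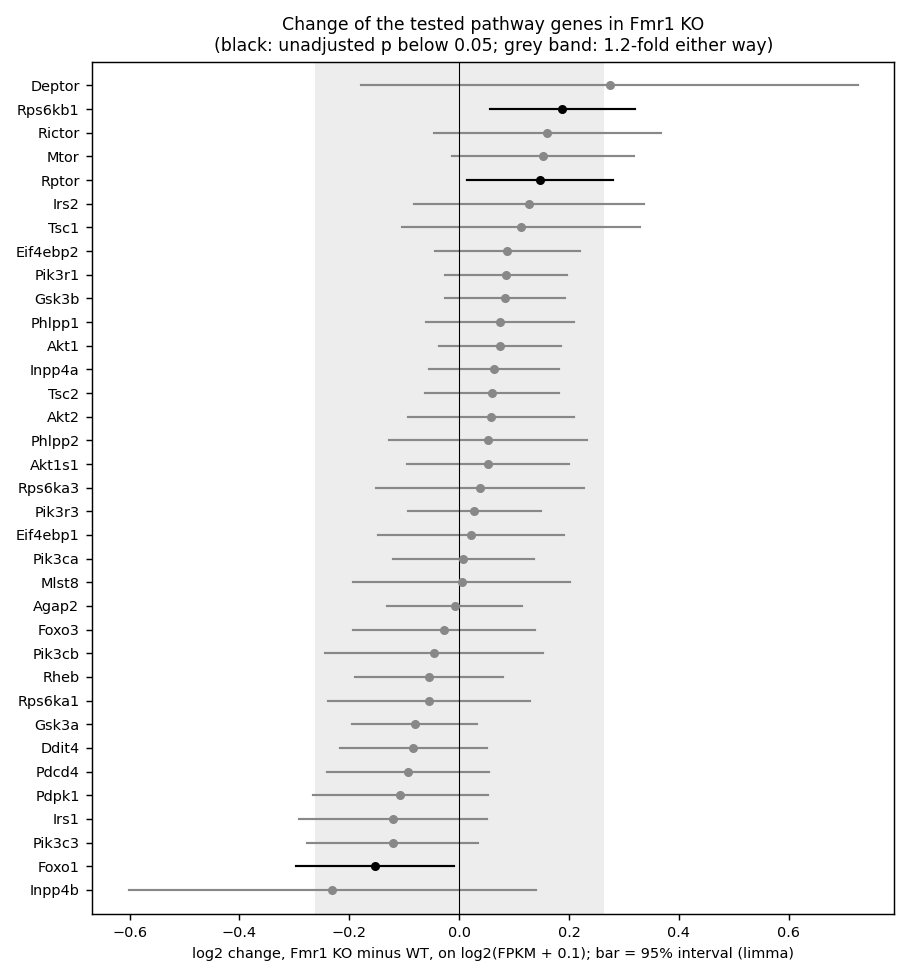
The log2 change (*Fmr1* KO minus WT, on log2(FPKM + 0.1)) of each of the 35 tested genes is plotted as a point with its 95% interval from limma, ordered by size, with genes at an unadjusted p below 0.05 in black and a grey band for 1.2-fold in either direction. The intervals of Rps6kb1, Rptor and Foxo1 exclude 0, and 23 of the 35 intervals lie inside the band.

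The class I PI3K catalytic subunit genes above the FPKM minimum were Pik3ca and Pik3cb. Pik3ca, the gene of p110alpha, had an FPKM of 11.7, 11.8 and 12.3 in WT against 12.4, 11.6 and 11.9 in *Fmr1* KO. Pik3cb, the gene of p110beta, had 6.92, 6.04 and 5.68 in WT against 6.18, 5.74 and 6.08 in *Fmr1* KO. The libraries of the genotypes overlapped for both genes, and the log2 changes were 0.01 (95% interval -0.12 to 0.14) and -0.05 (-0.24 to 0.15). The other subunits, Pik3cd and Pik3cg, known mainly from blood cells, were below 1 FPKM in every library. Pik3cd had 0.584, 0.513 and 0.523 in WT against 0.424, 0.797 and 0.498 in *Fmr1* KO. The summed FPKM of the 4 catalytic genes was 18.7 ± 0.429 in WT against 18.6 ± 0.4001 in *Fmr1* KO (SD, n = 3).

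Of the regulatory subunits, which hold the catalytic subunits and dock them to receptors, Pik3r1 (p85alpha) and Pik3r3 (p55gamma) were detected at levels above those of the catalytic genes. Pik3r1 had an FPKM of 33.9, 35.9 and 35.7 in WT against 36.1, 37.6 and 38.1 in *Fmr1* KO. All 3 *Fmr1* KO libraries lay above WT, but the log2 change was 0.08 (95% interval -0.03 to 0.20, adjusted p = 0.465 in limma). Pik3r3 had 27.1, 29.5 and 29.5 in WT against 28.6, 29.8 and 29.3 in *Fmr1* KO, and the genotypes overlapped. Pik3c3, the class III enzyme that acts in endosomes and autophagy, had a mean of 10.1 ± 0.578 FPKM in WT against 9.26 ± 0.445 in *Fmr1* KO (SD, n = 3), with overlapping libraries.

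Pik3r2 (p85beta, chromosome 8, 70768176 to 70776712) and Rps6kb2 (S6K2, chromosome 19, 4156792 to 4163383) were listed at 0 in all 6 libraries. Each of these symbols has another locus on a scaffold outside the chromosomes, also listed at 0. Of 1003 protein-coding symbols with a locus on a chromosome and another on a scaffold, 604 (60.2%) were listed at 0 in every library, against 20.1% of 20564 protein-coding symbols with loci on chromosomes only. A listed 0 for Pik3r2 and Rps6kb2 was therefore not read as absence of the transcript, and no comparison was made. Mtor and Pik3cd also have scaffold loci. At 0 to 0.0104 FPKM, the scaffold locus of Mtor held little of its signal, and those of Pik3cd were listed at 0.

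**Figure D2:**
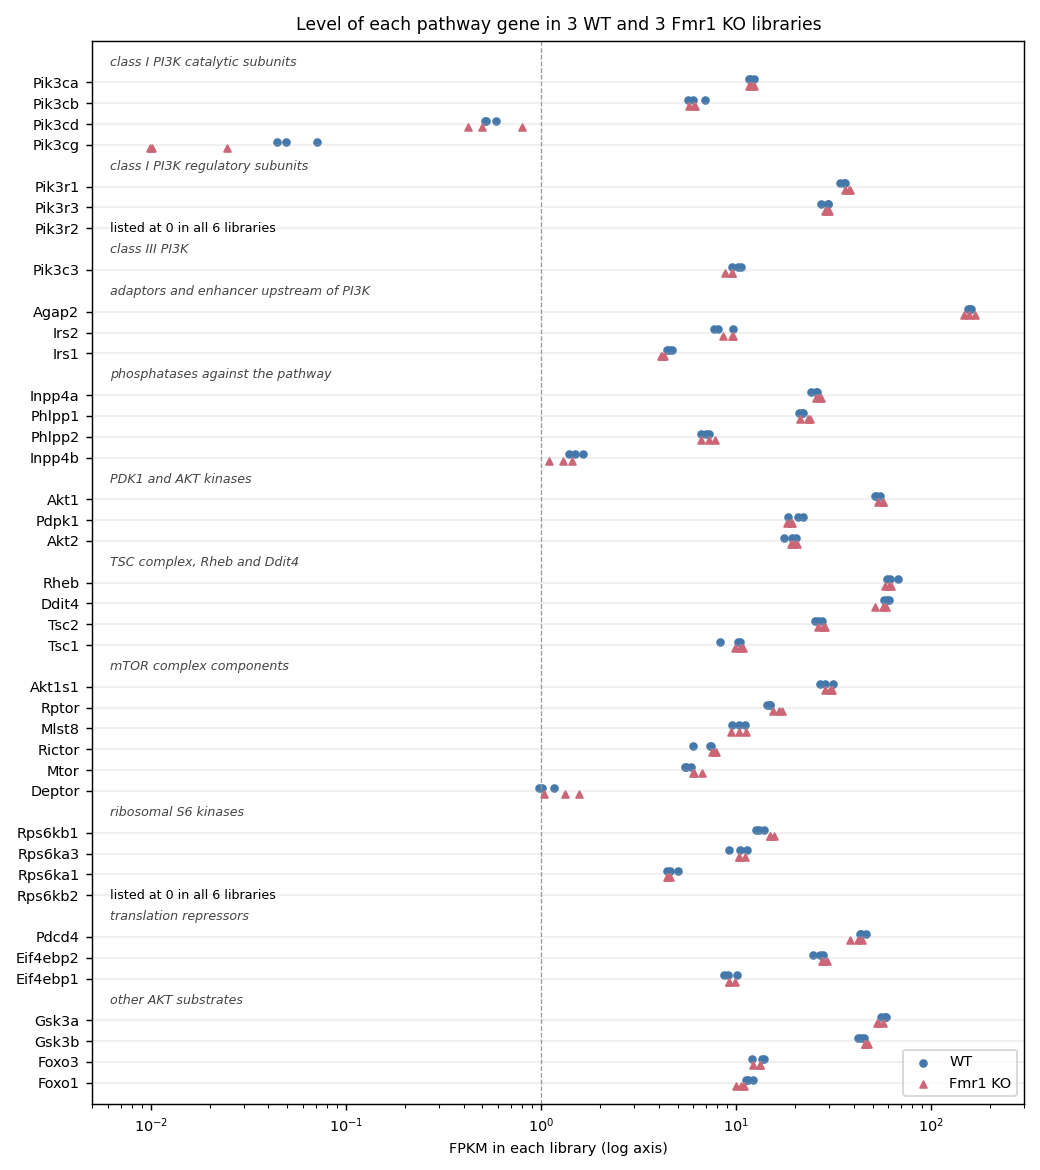
FPKM of the 39 genes in each WT (circles) and *Fmr1* KO (triangles) library is plotted on a log axis, with genes grouped by role and ordered by mean level within a role. Agap2 is the highest at 147 to 167 FPKM, Pik3cd and Pik3cg lie below the dashed line at 1 FPKM, and Pik3r2 and Rps6kb2 are listed at 0.

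Upstream of PI3K, the gene with the highest level of the whole group was Agap2 (chromosome 10, 127075269 to 127093170), whose product PIKE is a GTPase that enhances PI3K and Akt activity in brain. It had an FPKM of 157, 160 and 154 in WT against 147, 156 and 167 in *Fmr1* KO, above 97.6% of all tested loci. The *Fmr1* KO libraries lay on both sides of WT, and the log2 change was -0.01 (95% interval -0.13 to 0.11). Irs1, an adaptor of the insulin and IGF1 receptors, had 4.54, 4.70 and 4.42 in WT against 4.16, 4.10 and 4.27 in *Fmr1* KO. These libraries did not overlap, and the log2 change was -0.12 (95% interval -0.29 to 0.05, adjusted p = 0.499 in limma). Its paralog Irs2 had 7.69, 9.60 and 8.09 in WT against 8.59, 9.61 and 9.46 in *Fmr1* KO, with overlap.

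For the 4 phosphatase genes of the cascade, Inpp4a, Inpp4b, Phlpp1 and Phlpp2, the libraries of the genotypes overlapped. Inpp4a, which removes a phosphate from a PI3K product lipid, had a mean of 25.3 ± 0.918 FPKM in WT against 26.4 ± 0.786 in *Fmr1* KO (SD, n = 3). Inpp4b, with the same activity, was at 1.64, 1.39 and 1.48 FPKM in WT against 1.10, 1.43 and 1.29 in *Fmr1* KO. Its *Fmr1* KO replicate 2 lay between the WT libraries, and the 95% interval of the log2 change, -0.60 to 0.14, was wide. Phlpp1 and Phlpp2, which dephosphorylate Akt, had mean FPKM of 21.6 and 6.96 in WT against 22.8 and 7.23 in *Fmr1* KO.

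Akt1 and Akt2 encode kinases that PDK1 and mTORC2 activate. Akt1 had an FPKM of 54.4, 51.9 and 51.6 in WT against 53.0, 56.4 and 56.8 in *Fmr1* KO. Akt2 had 20.3, 17.5 and 19.2 in WT against 19.5, 19.2 and 20.6 in *Fmr1* KO. The genotypes overlapped for both genes, with log2 changes of 0.07 (95% interval -0.04 to 0.19) for Akt1 and 0.06 (-0.09 to 0.21) for Akt2. Pdpk1, the gene of PDK1, had a mean of 20.4 ± 1.79 FPKM in WT against 18.9 ± 0.528 in *Fmr1* KO (SD, n = 3), again with overlap.

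For the TSC complex genes and Rheb, the libraries of the genotypes overlapped. Tsc1, the gene of hamartin, had an FPKM of 8.24, 10.4 and 10.2 in WT against 9.81, 10.8 and 10.5 in *Fmr1* KO. Tsc2, the gene of the GTPase-activating subunit tuberin, had 25.5, 27.5 and 26.2 in WT against 26.4, 28.4 and 27.8 in *Fmr1* KO. WT replicate 1 was the lowest library for both genes, and without it the log2 change of Tsc1 was 0.004 in place of 0.11. The span of Tsc2 shares 699 bases with Pkd1, which had a mean of 10.2 FPKM in WT against 11.5 in *Fmr1* KO. Rheb, which Tsc2 inactivates, had 67.5, 61.1 and 59.3 in WT against 60.4, 58.1 and 62.1 in *Fmr1* KO. Ddit4, a stress-induced inhibitor of mTORC1 also known as REDD1, had 57.0, 60.5 and 59.5 in WT against 58.8, 51.6 and 56.8 in *Fmr1* KO. Rheb and Ddit4 were the genes with the highest levels after Agap2, at above 92.2% and 91.4% of all tested loci, and the genotypes overlapped for both.

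The 6 mTOR complex genes of the cascade had a log2 change above 0, from 0.005 for Mlst8 to 0.27 for Deptor, as did 6816 of all 13195 tested loci. A separate list of other mTOR and TSC complex components had 2 of 7 above 0 and 5 below. Among those below were the mTORC2 subunit genes Mapkap1 (-0.04, 95% interval -0.16 to 0.08) and Prr5 (-0.13, -0.40 to 0.13). These estimates had the other sign, but their intervals include 0. WT and *Fmr1* KO libraries were separated for 3 of the 6, Mtor, Rptor and Rictor, all higher in *Fmr1* KO, against 10.8% of all tested loci in that direction. The change of Mlst8 turned sign when single libraries were left out. No gene of the 6 passed an adjusted p of 0.05, and 1 had an unadjusted p below 0.05, against 14.8% of all tested loci. Mtor, the kinase itself, had an FPKM of 5.47, 5.83 and 5.52 in WT against 6.03, 6.06 and 6.65 in *Fmr1* KO. Its log2 change was 0.15 (95% interval -0.01 to 0.32, adjusted p = 0.377 in limma). Rptor (chromosome 11, 119602905 to 119899591) encodes raptor, the subunit that presents substrates to mTORC1. It had 14.4, 15.0 and 15.0 in WT against 15.4, 17.1 and 16.6 in *Fmr1* KO, a log2 change of 0.15 (95% interval 0.01 to 0.28, unadjusted p = 0.0345 and adjusted p = 0.296 in limma).

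Rictor, the subunit that defines mTORC2, had an FPKM of 5.99, 7.46 and 7.31 in WT against 7.51, 7.88 and 7.74 in *Fmr1* KO. Its log2 change of 0.16 (95% interval -0.05 to 0.37, adjusted p = 0.455 in limma) was 0.06 without WT replicate 1, the low WT library. Mlst8, a subunit of both complexes, had a mean of 10.3 FPKM in each genotype. Akt1s1, the gene of the mTORC1 inhibitor PRAS40, had a mean of 28.9 ± 2.11 FPKM in WT against 29.95 ± 1.26 in *Fmr1* KO (SD, n = 3). The Akt1s1 locus also carries the microRNA symbol Mir707. Deptor, which binds and inhibits mTOR, had 1.02, 0.971 and 1.16 in WT against 1.57, 1.03 and 1.32 in *Fmr1* KO, so that *Fmr1* KO replicate 2 lay among the WT libraries.

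Rps6kb1 (chromosome 11, 86498869 to 86544885), the gene of S6K1, had the lowest p of the cascade. It had an FPKM of 12.7, 13.1 and 13.9 in WT against 14.8, 15.5 and 14.9 in *Fmr1* KO. Every *Fmr1* KO library lay above every WT library. The mean was 13.2 ± 0.632 in WT against 15.1 ± 0.381 in *Fmr1* KO (SD, n = 3), a ratio of 1.14. The log2 change was 0.19 (standard error 0.06, 95% interval 0.06 to 0.32), with an unadjusted p of 0.0107 and an adjusted p of 0.208 in limma, so it did not pass over all tested loci. Without each library in turn it stayed between 0.16 and 0.22. At its 3' end Rps6kb1 overlaps the convergent gene Rnft1 by 139 bases in RefSeq GRCm38.p6, and the strand setting of the libraries is not given in the sources used here. Rnft1 had 5.76, 6.25 and 6.65 FPKM in WT against 7.502, 6.96 and 7.27 in *Fmr1* KO, with a log2 change of 0.22 and an adjusted p of 0.247 from limma. How far reads are shared was not tested.

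The p90 S6 kinase (RSK) genes encode kinases that ERK and PDK1 drive. Rps6ka1 had an FPKM of 5.03, 4.56 and 4.41 in WT against 4.58, 4.46 and 4.404 in *Fmr1* KO. Rps6ka3, the member of the group on the X chromosome, where *Fmr1* lies, had 9.21, 11.4 and 10.5 in WT against 10.4, 11.1 and 10.3 in *Fmr1* KO. The *Fmr1* KO libraries of Rps6ka3 all lay inside the WT range, while those of Rps6ka1 overlapped the lower WT libraries.

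Among the translation repressors, Eif4ebp1 and Eif4ebp2 encode 4E-BP1 and 4E-BP2, which hold the cap-binding protein eIF4E until mTORC1 phosphorylates them. 4E-BP2 is the form known to predominate in brain. Eif4ebp1 had an FPKM of 10.1, 8.64 and 9.06 in WT against 9.85, 9.15 and 9.14 in *Fmr1* KO. Eif4ebp2 had 24.7, 27.7 and 26.9 in WT against 27.5, 29.0 and 27.7 in *Fmr1* KO. The genotypes overlapped for both, with log2 changes of 0.02 (95% interval -0.15 to 0.19) and 0.09 (-0.05 to 0.22). Pdcd4, an eIF4A inhibitor that S6K1 marks for degradation, had a mean of 44.2 ± 1.95 FPKM in WT against 41.5 ± 3.12 in *Fmr1* KO (SD, n = 3), with overlap. Its annotated span shares 7937 bases with Bbip1, which was also expressed.

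Of the other Akt substrates, Foxo1 (chromosome 3, 52268337 to 52350109), a transcription factor that Akt keeps out of the nucleus, had lower levels in *Fmr1* KO, past an unadjusted p alone. It had an FPKM of 12.2, 11.6 and 11.3 in WT against 10.9, 9.94 and 10.6 in *Fmr1* KO, with no overlap. The log2 change was -0.15 (95% interval -0.30 to -0.01, unadjusted p = 0.0393 and adjusted p = 0.311 in limma). Its paralog Foxo3 had a mean of 13.1 ± 1.01 in WT against 12.9 ± 0.646 in *Fmr1* KO (SD, n = 3). The glycogen synthase kinase genes had opposite signs. Gsk3a had 58.8, 57.9 and 55.4 in WT against 56.8, 52.8 and 53.1 in *Fmr1* KO, with overlap. Gsk3b had 42.0, 45.4 and 43.8 in WT against 47.1, 46.0 and 45.8 in *Fmr1* KO, without overlap (log2 change 0.08, adjusted p = 0.464 in limma). An antisense transcript of 1542 bases, 9130221H12Rik, lies wholly within Gsk3a and had a mean of 4.37 FPKM in WT against 4.51 in *Fmr1* KO.

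The balance between paralogs or partner subunits was compared as the ratio of their FPKM within a library, which does not depend on how libraries were scaled. Of 15 planned ratios, those with Pik3r2 or Rps6kb2 as denominator could not be formed, and 13 were tested. Pik3ca stood at 1.94 ± 0.244 times Pik3cb in WT against 1.998 ± 0.0318 times in *Fmr1* KO (SD, n = 3). Akt1 stood at 2.78 ± 0.165 times Akt2 in WT against 2.81 ± 0.121 times in *Fmr1* KO, and Rptor at 2.15 ± 0.218 and 2.12 ± 0.0631 times Rictor (SD, n = 3). Tsc1 was at 0.365 ± 0.0361 of Tsc2 in WT against 0.377 ± 0.00510 in *Fmr1* KO, and Eif4ebp1 at 0.352 ± 0.04996 and 0.334 ± 0.0219 of Eif4ebp2 (SD, n = 3). These ratios overlapped between the genotypes.

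The libraries did not overlap for 4 of the 13 ratios, Gsk3a to Gsk3b, Irs1 to Irs2, Inpp4a to Inpp4b and Pik3r1 to Pik3r3. Among single tested loci 21.1% were separated, and the share for ratios of other gene pairs was not computed. Gsk3b, Irs1 and Pik3r1 were already separated as single genes, so their ratios are not independent of those values. The ratio of Gsk3a to Gsk3b was 1.40, 1.27 and 1.27 in WT against 1.21, 1.15 and 1.16 in *Fmr1* KO, a log2 difference of -0.16. That of Irs1 to Irs2 was 0.590, 0.490 and 0.546 in WT against 0.485, 0.426 and 0.452 in *Fmr1* KO, a log2 difference of -0.25. For Inpp4a to Inpp4b it was 15.8, 18.4 and 16.3 in WT against 24.7, 18.6 and 19.9 in *Fmr1* KO, with Inpp4b close to the FPKM minimum. For Pik3r1 to Pik3r3 it was 1.25, 1.22 and 1.21 in WT against 1.26, 1.26 and 1.30 in *Fmr1* KO, a log2 difference of 0.06. In the two-sided exact permutation test each of the 4 had p = 0.1, the smallest p that 3 libraries against 3 allow, and a Benjamini-Hochberg adjusted p of 0.325 over the 13 ratios, so this test could not pass 0.05.

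**Figure D3:**
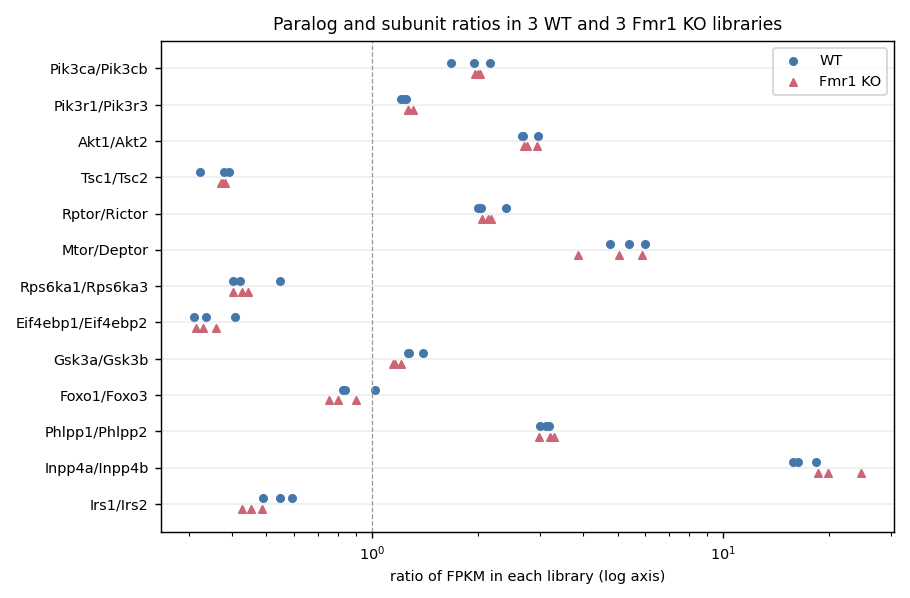
The ratio of FPKM of 13 pairs of paralogs or partner subunits is plotted on a log axis for each WT (circles) and *Fmr1* KO (triangles) library, with a dashed line at a ratio of 1. The Gsk3a to Gsk3b ratio lies at 1.27 to 1.40 in WT against 1.15 to 1.21 in *Fmr1* KO, while the Akt1 to Akt2 and Rptor to Rictor ratios overlap.

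Other genes of the pathway were listed by role, 90 in all, of which 88 were in the table and 80 were tested. No gene of these passed an adjusted p of 0.05, and 8 (10%) had an unadjusted p below 0.05, 6 higher and 2 lower, against 14.8% of all tested loci. Their median log2 change was 0.03. By role, there were 5 of 12 among PI3K enzymes outside class I and phosphoinositide phosphatases, 0 of 12 among receptors and adaptors, 0 of 7 among other mTOR and TSC complex components, 1 of 27 in the amino acid sensing arm of mTORC1 and 2 of 22 among other effectors and feedback genes.

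Inpp5k (chromosome 11, 75629067 to 75648865), a phosphoinositide 5-phosphatase, had the lowest p of the 80. It had an FPKM of 11.1, 11.7 and 10.9 in WT against 14.0, 14.6 and 13.7 in *Fmr1* KO, with no overlap. The log2 change of Inpp5k was 0.32 with a standard error of 0.06 (adjusted p = 0.0685 in limma), and this adjusted p was 0.0465 when loci below 5 FPKM were left out. Inpp5e, the 5-phosphatase of primary cilia, had 5.03, 4.98 and 5.30 in WT against 5.96, 6.02 and 6.03 in *Fmr1* KO (log2 change 0.23, adjusted p = 0.191 in limma). Synj1, the synaptic vesicle phosphatase synaptojanin, had 50.2, 53.7 and 51.6 in WT against 57.0, 58.5 and 56.3 in *Fmr1* KO (log2 change 0.14, adjusted p = 0.221 in limma). Inpp5f, whose product is a phosphoinositide 4-phosphatase, had the opposite sign, with 69.6, 64.1 and 64.4 in WT against 62.6, 60.5 and 57.1 in *Fmr1* KO. These genes are named for their unadjusted p, which goes with separated libraries, and over the 80 genes the libraries were separated for 14 (17.5%), against 21.1% of all tested loci. Within their own list of PI3K enzymes and phosphatases it was 7 of 12 (58.3%). In the other lists it was 8.33% (receptors and adaptors), 0% (mTOR and TSC components), 14.8% (amino acid sensing) and 9.09% (effectors and feedback).

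Pik3c2b, a class II PI3K, had an FPKM of 2.49, 2.47 and 2.46 in WT against 2.87, 3.15 and 3.13 in *Fmr1* KO (log2 change 0.29, adjusted p = 0.228 in limma). The kinase gene Sgk1, a target of mTORC2 that also responds to glucocorticoids, had 9.95, 9.48 and 8.78 in WT against 11.3, 11.01 and 10.03 in *Fmr1* KO. Rps6ka5, the gene of the nuclear kinase MSK1, had a mean of 4.13 ± 0.368 in WT against 4.88 ± 0.386 in *Fmr1* KO (SD, n = 3). Lamtor5, a subunit of the Ragulator scaffold that brings mTORC1 to lysosomes, had the largest log2 change below 0 of the 80, at -0.25, with 24.1, 24.4 and 26.5 in WT against 23.6, 19.9 and 19.7 in *Fmr1* KO (adjusted p = 0.213 in limma).

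**Figure D4:**
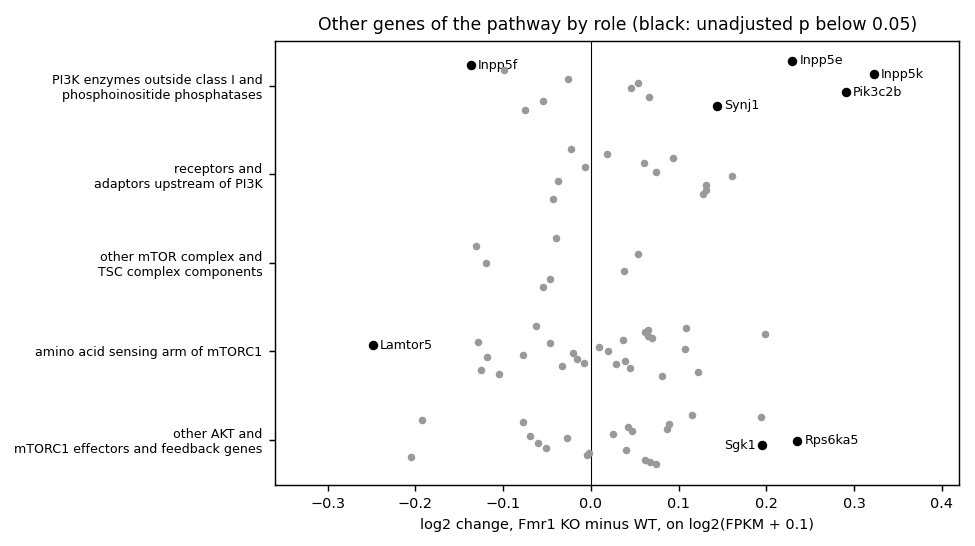
The log2 change (*Fmr1* KO minus WT) of the 80 tested genes of the wider pathway is plotted by role, with genes at an unadjusted p below 0.05 in black and named. Inpp5k (0.32) and Lamtor5 (-0.25) mark the ends of the range, and 5 of the 8 named genes are in the list of PI3K enzymes and phosphatases.

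Several genes below the FPKM minimum, picked out after their values were seen, encode PI3K components known mainly from blood cells. Pik3cg, the gene of p110gamma, had an FPKM of 0.0490, 0.0440 and 0.0708 in WT against 0.0244, 0.0101 and 0.00994 in *Fmr1* KO. Inpp5d, the gene of the 5-phosphatase SHIP1, had 0.220, 0.222 and 0.256 in WT against 0.115, 0.129 and 0.134 in *Fmr1* KO. Pik3r6, a regulatory subunit of p110gamma, had 0.314, 0.263 and 0.245 in WT against 0.164, 0.213 and 0.166 in *Fmr1* KO. All *Fmr1* KO libraries lay below WT for these 3 genes, as for 4.71% of the loci below the minimum. Pik3cd, Pik3r5 and Pik3ap1, also known from blood cells, overlapped between the genotypes. Without an FPKM minimum, limma gave an adjusted p of 0.446 for Pik3cg, 0.437 for Inpp5d and 0.584 for Pik3r6. In that fit 9.8% of loci were at an unadjusted p below 0.05, and Pik3cg and Inpp5d were among them.

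The microglia markers were also lower as a sum in *Fmr1* KO, as were the endothelial list and, mainly through Dcn, the fibroblast and mural list. Of 9 markers, 2 (Aif1 and Tmem119) were listed at 0 in every library, and all *Fmr1* KO libraries lay below all WT libraries for 6 of the other 7, Csf1r being the exception. The share in that direction was 10.3% of all tested loci and 4.71% of the loci below the minimum. The markers are near the floor, and C1qa and C1qb were at 0 in *Fmr1* KO replicate 2. The summed FPKM of the 9 markers was 7.95, 5.45 and 7.75 in WT against 2.47, 1.37 and 2.05 in *Fmr1* KO. Markers of endothelial cells (5 genes) summed to 2.47 to 2.54 in WT against 1.53 to 2.24 in *Fmr1* KO. Those of fibroblasts and mural cells (6 genes) summed to 47.4 to 52.0 against 38.6 to 46.8. Most of the fibroblast and mural sum was Dcn, with a mean of 41.97 FPKM in WT against 34.84 in *Fmr1* KO, with overlap. Lum and Pdgfrb also had lower means in *Fmr1* KO, while Col1a1, Col1a2 and Rgs5 had higher means. By gene, all *Fmr1* KO libraries lay below WT for 1 of the 5 endothelial and 0 of the 6 fibroblast and mural markers, and above WT for 0 and 1. The part of the cells behind these marker lists in the lower values of Pik3cg, Inpp5d and Pik3r6 was not tested.

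**Figure D5:**
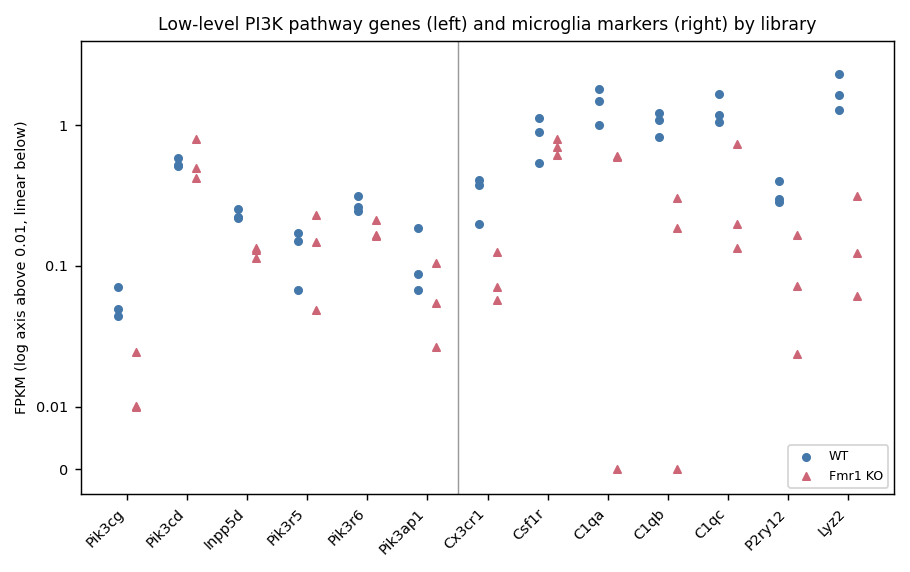
FPKM in each WT (circles) and *Fmr1* KO (triangles) library is plotted for 6 PI3K pathway genes below 1 FPKM (left) and the 7 microglia markers with a value above 0 (right), on an axis that is logarithmic above 0.01 and linear below. Pik3cg, Inpp5d and Pik3r6 have all *Fmr1* KO libraries below WT, as do 6 of the 7 markers.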

How the data were processed

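Per the file headers and the paper's methods, the authors removed adapters (Fastx Clipper), trimmed reads (sickle), aligned them to GRCm38 (TopHat2), assembled genes (Cufflinks), compared genotypes (Cuffdiff) and deposited FPKM per library. Versions, annotation, strand setting and library scaling are not stated in what was read here. The authors' group values, fold changes, p and q values are also in the table and were not used. Coordinates are RefSeq GRCm38.p6 gene spans matched by GeneID.

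The 47086 loci (48100 rows) were taken once each. Those reaching a mean of 1 FPKM in a genotype were compared on log2(FPKM + 0.1) with limma 3.58.1 in R 4.3.3 (genotype as the only term, mean-variance trend, Benjamini-Hochberg adjustment), after a check on simulated data. Ratios were compared by two-sided exact permutation over libraries.

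The genes, lists and tests were chosen with earlier results of these data known. Within the cascade, each library's value is given for genes at an unadjusted p below 0.05, with separated libraries or at 0. It is also given for the 5 highest and 5 lowest, for the PI3K, Akt, TSC, S6K and 4E-BP axis, and for a few more. Of the wider pathway, the 5 largest changes per direction at an unadjusted p below 0.05 were to be named, and Synj1 is named in addition. Alternatives changed the pseudocount (1 or 0.01), the FPKM minimum (none or 5), the library centring, the trend or the replicate block, or left out each library. Removal of the trend with gene span (lowess, span 0.3) was added after seeing the data. Absolute depth is unknown, so counting error cannot be given.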

Additional observations from a re-analysis of the deposited data

How the results depend on the processing

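No cascade gene passed an adjusted p of 0.05 in limma under any of the 14 alternatives run, and the lowest adjusted p was 0.148 (Rps6kb1 with a replicate block). At an unadjusted p below 0.05 the count of cascade genes was 3 or 4 with all libraries. It was 1 to 3 with each library left out, and 1, Rps6kb1, without *Fmr1* KO replicate 2 and without *Fmr1* KO replicate 3. Over these 14 and the reported fit, 15 in all, Rps6kb1 was below an unadjusted p of 0.05 in 15, Foxo1 in 11 and Rptor in 10. Of the other pathway genes, 4 to 9 were below it with a library left out (4 without *Fmr1* KO replicate 2), and 1, Inpp5k, passed an adjusted p of 0.05 with a minimum of 5 FPKM, where fewer loci are tested. The median log2 change of the cascade was 0.0098 (without WT replicate 2) to 0.0446 with a library left out, against 0.0384.

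Some log2 changes near 0 turned sign, and the cause was not tested. With the gene span trend removed these were Pik3ca (-0.00975) and Agap2 (0.000914). With each library left out, the log2 changes that turned sign ran from -0.0152 to 0.0307 for Pik3ca, -0.108 to 0.0336 for Pik3cb, -0.0121 to 0.0479 for Pik3r3, -0.0548 to 0.0362 for Agap2, -0.00358 to 0.113 for Phlpp2, -0.000592 to 0.107 for Akt2, -0.0934 to 0.000416 for Rheb, -0.0594 to 0.0698 for Mlst8, -0.0428 to 0.107 for Rps6ka3, -0.0270 to 0.0829 for Eif4ebp1, -0.0923 to 0.0144 for Foxo3. The log2 differences of ratios that did so ran from -0.0430 to 0.140 for Pik3ca to Pik3cb, -0.0189 to 0.0647 for Akt1 to Akt2, -0.0313 to 0.106 for Tsc1 to Tsc2, -0.0628 to 0.0673 for Rptor to Rictor, -0.2803 to 0.0260 for Mtor to Deptor, -0.179 to 0.0427 for Rps6ka1 to Rps6ka3, -0.1498 to 0.0442 for Eif4ebp1 to Eif4ebp2, -0.00893 to 0.0635 for Phlpp1 to Phlpp2.

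Replicate numbers were not taken to pair the libraries in the reported fit. The correlation of deviations across loci was 0.243 between the replicate 1 libraries of the genotypes. It was -0.122 and -0.131 for WT replicate 1 with *Fmr1* KO replicates 2 and 3, and -0.119 and -0.152 for *Fmr1* KO replicate 1 with WT replicates 2 and 3. For replicates 2 and 3, it was 0.0577 and 0.0801 with the same number, against 0.0658 and 0.0781 with different numbers. Whether the replicate 1 libraries share a source was not tested. With the replicate block, the unadjusted count in the cascade was 3 and the adjusted count 0. Over all loci, 29 higher and 36 lower loci passed an adjusted p of 0.05 with the block, against 12 and 23 without it. Depth, which is unknown, and 3 libraries a genotype limit the smallest change that can be seen.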
